A study of Mus musculus with 6 samples.

Results

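The genes described here encode the endoplasmic reticulum (ER) machinery that takes in, folds, checks and ships secreted and membrane proteins, together with the regulators of the unfolded protein response (UPR). They were taken by gene symbol from the count table and number 47 of its 38561 genes: 12 for translocation into the ER, 14 for folding, 8 for the stress response and quality control, and 13 for vesicle coats and cargo receptors. All 47 had a row, and all 47 passed the filter on low counts. RNA was sequenced from mouse embryonic stem cell (ESC) cultures of strain 129X1/SvJ x 129S1/Sv at passages 13 to 17, grown without feeder cells on gelatin in medium with 20% serum replacement (KSR) and 1000 U/ml of leukemia inhibitory factor (LIF), a cytokine that sustains the undifferentiated state. Every library came from total RNA of 100000 sorted events, amplified before sequencing. Cells were sorted by 2 surface proteins, PECAM1, an adhesion molecule of undifferentiated ESCs, and PDGFRa, a growth factor receptor that marks cells of the primitive endoderm lineage. The 3 fractions, with 2 libraries each, were PECAM1-only (positive for PECAM1, negative for PDGFRa), double-positive (positive for both) and PDGFRa-only (negative for PECAM1, positive for PDGFRa). The labels give all 3 the same strain and medium and name no other agent. The labels number the libraries of a fraction as experiments 1 and 2, called replicates here, and do not say whether these were separate cultures, so each p measures the spread between these libraries, which may be technical.

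Secreted proteins enter the ER through the Sec61 channel while signal peptidase removes their signal sequence, and chaperones and disulphide isomerases of the lumen then fold them. Proteins that fail to fold are sent back to the cytosol for degradation, and folded ones leave in COPII-coated vesicles, while COPI-coated vesicles and the KDEL receptors return escaped ER residents. When unfolded proteins accumulate, the sensors IRE1 (gene Ern1), ATF6 and PERK (gene Eif2ak3) raise the transcription of this machinery through the factors XBP1, cleaved ATF6 and ATF4. Primitive endoderm and its derivative parietal endoderm are known for secreting large amounts of basement membrane protein.

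The libraries held 4809661 to 7273669 counts, and counts were found for 17811 to 20510 genes. Levels are given as CPM, the count per 1000000 of a library's counts after TMM scaling (trimmed mean of M-values), with replicate 1 named before replicate 2. Pecam1 had 166 and 143 CPM in the PECAM1-only libraries, 53.8 and 44.9 CPM in the double-positive libraries and 1.57 and 1.51 CPM in the PDGFRa-only libraries, and Pdgfra had 2.04 and 1.88, 552 and 518 and 509 and 605 CPM in the same order, as the labels say. The 8 markers of undifferentiated ESCs were all lower in PDGFRa-only than in PECAM1-only cells, Pou5f1 the least (-0.86 ± 0.21), and the 8 primitive endoderm markers, with Gata4 at 9.17 ± 0.27, and the 8 of parietal endoderm secretion were all higher. The summed level of the parietal secretion markers, which include collagen IV and laminin chains, was 967 and 988 CPM in PECAM1-only, 23918 and 25248 CPM in double-positive and 37699 and 37832 CPM in PDGFRa-only libraries. Those collagens and laminins are secreted cargo, and their part in the results below was not tested. Of 9 endothelial and blood markers, Ptprc, Erg and Emcn had 0 counts in all 6 libraries, 3 were tested and 2 of them, Cdh5 and Kdr, were higher in PDGFRa-only cells. The whole list summed to 16.2 and 14.7 CPM in PECAM1-only, 84.0 and 68.2 CPM in double-positive and 134 and 84.9 CPM in PDGFRa-only libraries. The 8 mesenchymal markers summed to 3.59 to 19.1 CPM per library, with Prrx1 at 0 counts in all of them; 3 were tested and 1, Col1a2, was higher. Among 10 genes of the stress response to cell dissociation, 9 were tested, and 5 were higher and 3 lower in PDGFRa-only cells. Beside each of these marker lists, 30.1% of all tested genes were higher and 28.8% lower in PDGFRa-only than in PECAM1-only cells. The dissociation genes summed to 686 and 601 CPM in PECAM1-only, 973 and 894 CPM in double-positive and 1099.6 and 1104 CPM in PDGFRa-only libraries. Whether these genes bear on the ER genes was not tested.

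The first comparison asked how the ER machinery differs between cells with only PDGFRa and cells with only PECAM1, the pole of primitive endoderm markers and that of pluripotency markers. Nearly the whole machinery was higher in PDGFRa-only cells: 45 of the 47 genes passed the test upward and 0 downward (0 also at an unadjusted p below 0.05 and by DESeq2), where 59% of all 13909 tested genes passed in either direction, 30.1% upward and 28.8% downward (edgeR quasi-likelihood test, adjusted p below 0.05). The median log2 fold change of the 47 genes was 1.59, and that of all tested genes was 0.01. At least a 2-fold higher level was found for 37 genes, against 20.6% of all tested genes. Summed over the 47 genes, the level was 6001 and 6797 CPM in the PECAM1-only libraries, 13339 and 13780.2 CPM in the double-positive and 15676 and 18015 CPM in the PDGFRa-only libraries. The 3 fractions did not overlap in this sum, and the PECAM1-only libraries were lowest. These genes took 0.671% and 0.761% of all counts in PECAM1-only cells and 1.45% and 1.64% in PDGFRa-only cells. In bulk RNA, fewer cells of a type and less RNA per cell cannot be told apart.

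By role, the median log2 fold change was 1.27 for translocation (12 of 12 higher), 1.60 for folding (13 of 14), 1.77 for the stress response (7 of 8) and 1.42 for vesicle coats and cargo receptors (13 of 13). The 2 genes that did not pass were the co-chaperone gene Dnajb9 and the ATF4 target Ddit3. Under the other scalings, filters and tools tried and without each library in turn, 42 of the 45 calls held. The 3 exceptions, Canx, Sec23b and Sec61g, had among the smaller changes and are described with their roles. Scaling by total counts alone moved the median of all genes by -0.29, and 43 or more members stayed higher under every scaling and 0 were lower.

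**Figure D1:**
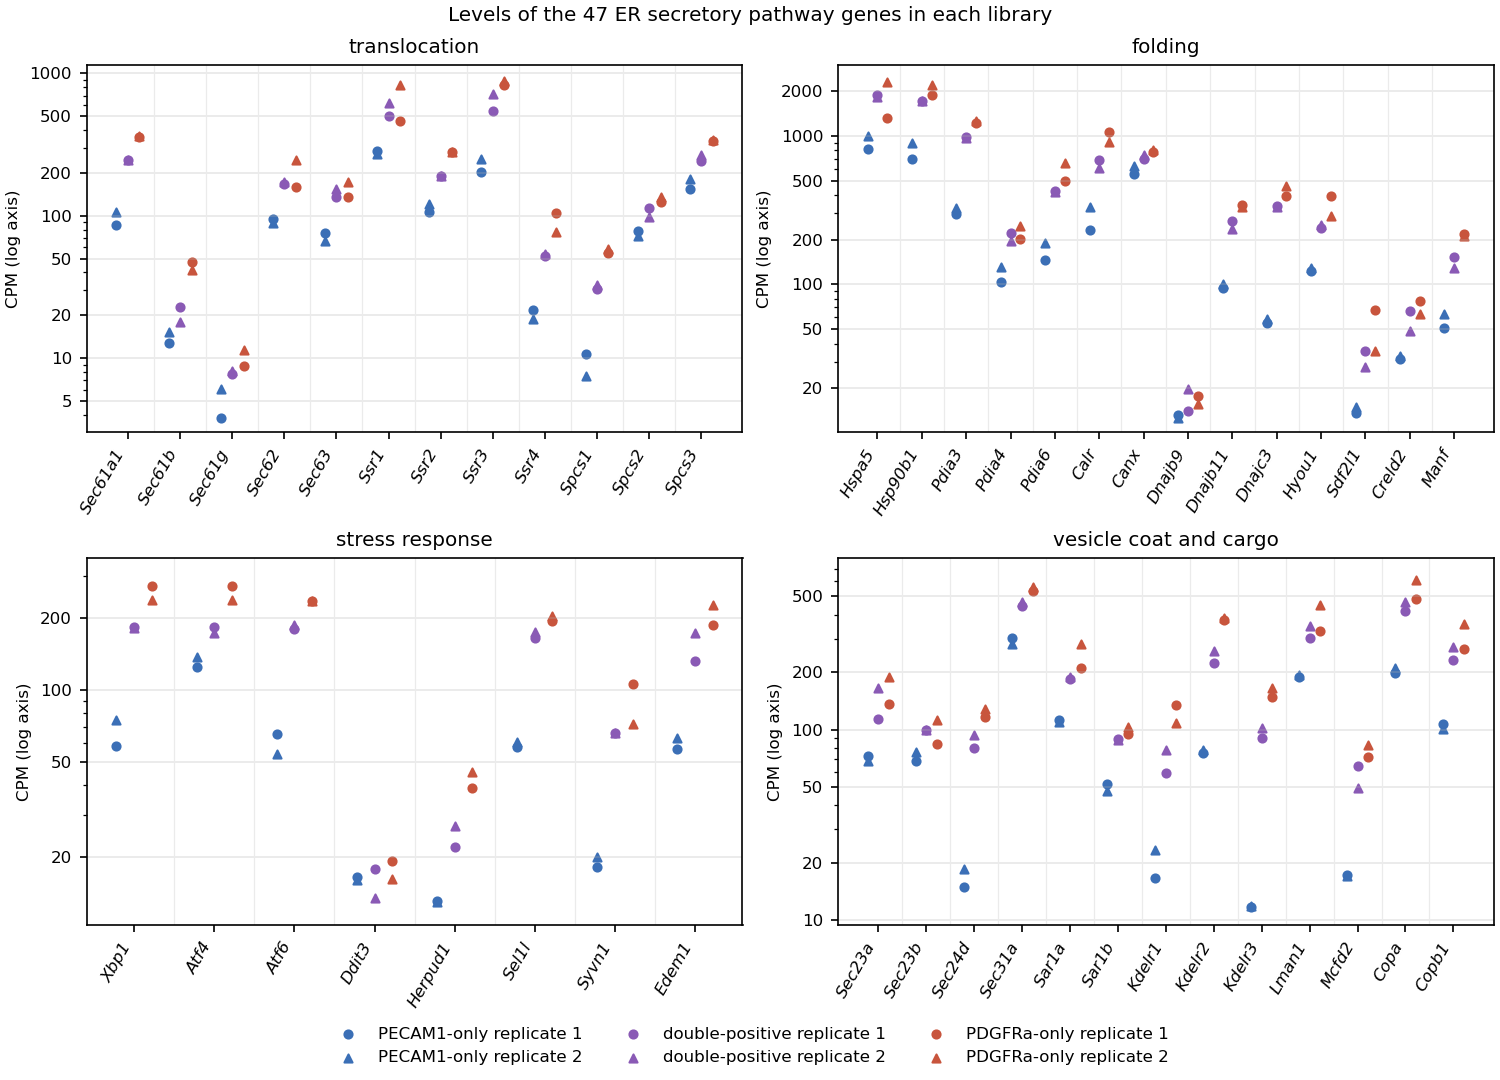
Level of each of the 47 genes in the 6 libraries, as CPM on log axes with a panel per role; circles are replicate 1, triangles replicate 2, and colours mark the fractions. For most genes the PECAM1-only libraries lie lowest and the PDGFRa-only libraries highest; in Ddit3 the fractions overlap.

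Because most of these genes were higher in the same fractions, their promoters were searched for the DNA elements that the UPR factors are known to bind. The windows were the 300 bases from 250 before to 50 after each gene start in RefSeq (build GRCm38.p6), and 39 of the 47 genes had an entry, with 41 starts. No entry was used for Atf6, Hyou1, Kdelr2, Lman1, Manf, Sec61a1, Spcs3 and Ssr2. The ER stress response element (ERSE, read as CCAAT and CCACG with any 9 bases between them, on both strands), known to be bound by ATF6 and XBP1 beside the CCAAT-binding factor NF-Y, was found in 8 genes, 19.5% of the 41 windows and 0.119% of all 32851 windows in the table. Its variant ERSE-II (ATTGG and CCACG with any 1 base between them) was found in Dnajb11 and Herpud1, 4.88% of the windows against 0.0365% of all. The members were chosen as genes of the ER and the UPR, so these shares are no independent result about them. A match is a description of the letters and not a site shown to be used, and no match says only that these letters are not in the window. The searches gave 0 overlapping matches of different elements.

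The matches of both elements are printed on the strand that reads as the element, with 6 bases on either side. The fixed letters, in capitals, are alike because the search required them:
Hspa5: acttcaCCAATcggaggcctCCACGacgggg
Hsp90b1: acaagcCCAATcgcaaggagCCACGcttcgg
Hsp90b1: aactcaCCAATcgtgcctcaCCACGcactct
Calr: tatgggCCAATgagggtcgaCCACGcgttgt
Canx: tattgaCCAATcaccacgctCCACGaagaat
Pdia6: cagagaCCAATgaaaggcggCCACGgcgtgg
Creld2: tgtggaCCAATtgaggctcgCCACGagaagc
Dnajc3: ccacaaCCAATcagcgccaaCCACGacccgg
Syvn1: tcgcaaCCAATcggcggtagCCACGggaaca
Dnajb11: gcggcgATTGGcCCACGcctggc
Herpud1: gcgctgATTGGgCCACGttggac
These stretches are at Hspa5 chr2:34772019-34772049, Hsp90b1 chr10:86705632-86705662, Hsp90b1 chr10:86705527-86705557, Calr chr8:84847069-84847099, Canx chr11:50325794-50325824, Pdia6 chr12:17266485-17266515, Creld2 chr15:88819514-88819544, Dnajc3 chr14:118937821-118937851, Syvn1 chr19:6046526-6046556, Dnajb11 chr16:22857846-22857868 and Herpud1 chr8:94386371-94386393. Of the 8 genes with ERSE, 7 encode chaperones or folding factors of the ER, and the other is Syvn1, the ubiquitin ligase of ER-associated degradation. Hsp90b1, which encodes the lumenal HSP90 chaperone GRP94, had 2 matches.

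The core of the UPR element (UPRE, TGACGTGG, both strands), known to be bound by XBP1, was found in 4 members, all of the vesicle coat and cargo group: 9.76% of the 41 windows and 0.676% of all. Among the further pathway lists described below, the core was found in Ube2j1 and Vcp of ER-associated degradation and in Txndc5 of the folding enzymes. It was also found in Sec16b of the COPII list and in Arf1, Copb2 and Gbf1 of the COPI list. The matches of the members are shown in the same way, since they mark a different set of members from the ERSE:
Kdelr3: gcgcggTGACGTGGcggggc
Sec24d: ggcgccTGACGTGGcactag
Sec23a: ccccttTGACGTGGcagagg
Copb1: cttggcTGACGTGGaagggg
Their positions are Kdelr3 chr15:79516372-79516391, Sec24d chr3:123267464-123267483, Sec23a chr12:59011998-59012017 and Copb1 chr7:114254695-114254714. The C/EBP-ATF element that ATF4 is known to bind (CARE, TGATGNAA, both strands) was found in Herpud1 and Kdelr1, 4.88% of the windows, near its share of 3.97% in all windows. It was more frequent in a separate list of 18 known targets of the PERK and ATF4 arm: 8 of the 16 genes with an entry held it, 42.1% of their 19 windows. That list was chosen as known targets of the arm, so its share is no independent result either.

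For 3 members the 250 bases before the gene start are printed on the gene's strand, with matches in capitals: Hspa5 as the best known ERSE gene (chr2:34771840-34772089, plus strand), and Dnajc3 (chr14:118937682-118937931, plus strand) and Kdelr3 (chr15:79516158-79516407, plus strand) as the members with the largest differences in their roles. In Kdelr3 the UPRE core reads on the opposite strand.
Hspa5: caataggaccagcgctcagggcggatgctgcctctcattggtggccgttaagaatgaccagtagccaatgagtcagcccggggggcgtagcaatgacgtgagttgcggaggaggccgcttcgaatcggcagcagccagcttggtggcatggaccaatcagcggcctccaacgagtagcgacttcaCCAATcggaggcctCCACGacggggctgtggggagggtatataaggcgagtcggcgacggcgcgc
Dnajc3: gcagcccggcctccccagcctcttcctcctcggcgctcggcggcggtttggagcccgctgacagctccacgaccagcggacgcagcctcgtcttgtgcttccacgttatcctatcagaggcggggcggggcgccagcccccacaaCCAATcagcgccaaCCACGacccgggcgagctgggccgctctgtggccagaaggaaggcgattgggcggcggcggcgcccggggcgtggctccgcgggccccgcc
Kdelr3: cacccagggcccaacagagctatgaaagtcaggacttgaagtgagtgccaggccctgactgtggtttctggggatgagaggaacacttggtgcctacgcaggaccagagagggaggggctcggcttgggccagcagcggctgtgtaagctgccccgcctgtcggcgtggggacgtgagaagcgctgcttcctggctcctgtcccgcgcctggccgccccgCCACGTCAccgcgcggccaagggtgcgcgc
Between PECAM1-only and PDGFRa-only cells the 10 members with ERSE or ERSE-II rose by a median of 1.73 (log2), from 0.41 (Canx) to 2.90 (Dnajc3). The 29 members with an entry but neither element had a median of 1.42, from 0.11 (Ddit3) to 3.72 (Kdelr3). The ranges overlapped over most of their length. No test was made of this difference.

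**Figure D2:**
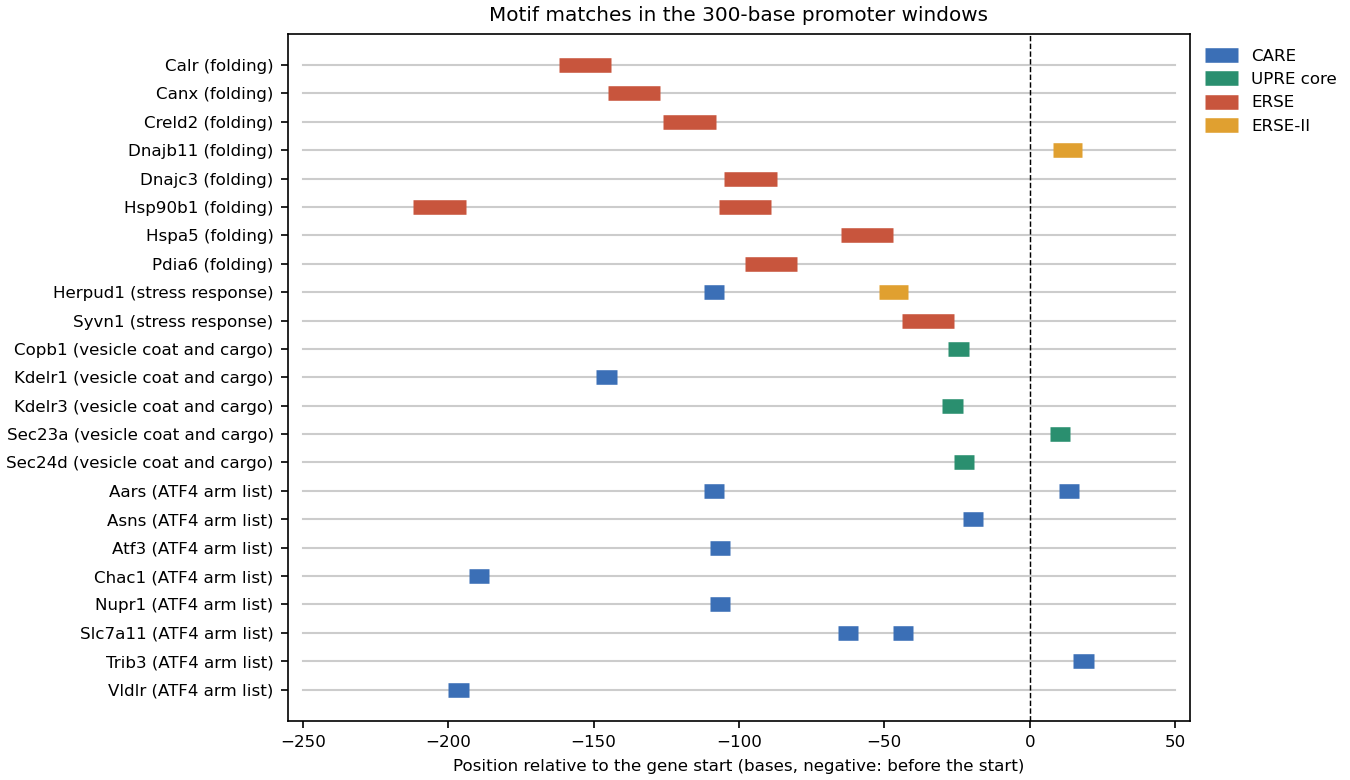
Positions of the motif matches in the promoter windows of members and of the list of ATF4 arm genes; the x axis gives bases from the gene start (dashed line), and each coloured block is a match. ERSE blocks lie before the start in chaperone genes, UPRE cores in vesicle coat and cargo genes close to the start, and CARE blocks mainly in the ATF4 arm list.

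Translocation genes rose throughout, from the channel to the peptidase. Sec61a1 (ENSMUSG00000030082, chr6:88503579-88518905, minus strand in GRCm38 and GENCODE M21), the pore-forming subunit of the channel, had 86.5 and 106 CPM in the PECAM1-only libraries, 248 and 247 CPM in the double-positive libraries and 359 and 362 CPM in the PDGFRa-only libraries. The 3 fractions were fully separated, and the PDGFRa-only replicates were nearly equal. Its log2 fold changes from PECAM1-only, with standard errors, were 1.91 ± 0.16 (adjusted p = 1.99e-09) for PDGFRa-only and 1.37 ± 0.16 (adjusted p = 6.29e-07) for double-positive. Spcs1, a signal peptidase subunit and the translocation gene with the largest difference, had 10.6 and 7.53 CPM (PECAM1-only), 30.8 and 32.4 CPM (double-positive) and 54.6 and 58.9 CPM (PDGFRa-only). Both PDGFRa-only libraries were above both double-positive ones, and these above both PECAM1-only ones, at 2.64 ± 0.22 (adjusted p = 1.51e-09) for PDGFRa-only and 1.79 ± 0.22 (adjusted p = 1.35e-06) for double-positive. Over 16.3% of its exon bases Spcs1 overlaps Glt8d1 on the opposite strand, which had 646 counts in all against 1157 for Spcs1; the strand setting of the counting is not given in the sources used here, so reads of the pair cannot be told apart. Ssr4, a subunit of the translocon-associated TRAP complex, had 21.8 and 19.0 CPM (PECAM1-only), 52.1 and 54.1 CPM (double-positive) and 105 and 76.6 CPM (PDGFRa-only), again without overlap, with log2 fold changes of 2.15 ± 0.20 (adjusted p = 8.63e-09) for PDGFRa-only and 1.38 ± 0.20 (adjusted p = 1.09e-05) for double-positive.

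The other 3 TRAP genes were also higher in PDGFRa-only cells, Ssr3 at 1.91 ± 0.18, Ssr2 at 1.31 ± 0.15 and Ssr1 at 1.23 ± 0.21. Ssr1 varied most between replicates, with 467 and 834 CPM in PDGFRa-only cells, and the first of these values lay below both double-positive libraries (502 and 618 CPM). For Ssr2, 12.8% of exon bases overlap the pseudogene Gm10704 on the opposite strand. Sec62 (1.13 ± 0.18) and Sec63 (1.12 ± 0.17), which help proteins enter after their synthesis, and the peptidase subunit genes Spcs3 (1.03 ± 0.16) and Spcs2 (0.79 ± 0.16) were higher by about the same amount. The small channel subunits, not tested against each other, had low levels. Sec61b had 12.8 and 15.2 CPM (PECAM1-only), 22.8 and 17.8 CPM (double-positive) and 47.4 and 41.8 CPM (PDGFRa-only), so that the double-positive libraries lay near the PECAM1-only level; it passed the test in PDGFRa-only (1.67 ± 0.22, adjusted p = 1.1e-06) and not in double-positive cells (0.54 ± 0.22, adjusted p = 0.0615). That adjusted p was 0.0295 without PDGFRa-only replicate 1, 0.0313 without replicate 2 and 0.0397 in a fit of the compared fractions alone. Sec61g was the member with the lowest level, 3.78 and 6.12 CPM (PECAM1-only), 7.71 and 8.14 CPM (double-positive) and 8.76 and 11.5 CPM (PDGFRa-only). It passed in PDGFRa-only cells (1.05 ± 0.31, adjusted p = 0.00683), and no longer without PDGFRa-only replicate 2 (adjusted p = 0.0624) or PECAM1-only replicate 1 (0.108).

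Folding genes held the most abundant members. Hspa5 (ENSMUSG00000026864, chr2:34771970-34777547, plus strand) encodes BiP, the lumenal HSP70 chaperone that also holds the UPR sensors inactive, and its level is the usual readout of the UPR. It had 815 and 1003 CPM in the PECAM1-only libraries, 1889 and 1834 CPM in the double-positive libraries and 1325 and 2294 CPM in the PDGFRa-only libraries. Every double-positive and PDGFRa-only library was above both PECAM1-only libraries, but the PDGFRa-only replicates lay on either side of the double-positive ones. The log2 fold changes were 0.99 ± 0.21 (adjusted p = 0.000366) for PDGFRa-only and 1.03 ± 0.21 (adjusted p = 0.000508) for double-positive. This was less than the median member, which rose by 1.59. Without PDGFRa-only replicate 1 the comparison of PDGFRa-only with double-positive cells gave 0.31, and without replicate 2 it gave -0.49 (adjusted p = 0.0239), against -0.04 ± 0.21 with both.

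Dnajc3 (ENSMUSG00000022136, chr14:118937976-118981697, plus strand), which encodes P58IPK, an ER co-chaperone and inhibitor of PERK, had the largest folding difference, with 54.9 and 58.6 CPM in the PECAM1-only libraries, 338 and 333 CPM in the double-positive libraries and 392 and 457 CPM in the PDGFRa-only libraries. Its 3 fractions did not overlap, and the double-positive libraries were close to the PDGFRa-only level. The log2 fold changes were 2.90 ± 0.17 (adjusted p = 4.87e-12) for PDGFRa-only and 2.56 ± 0.17 (adjusted p = 7.02e-11) for double-positive. Pdia3, the disulphide isomerase that works with calreticulin and calnexin on glycoproteins, had 299 and 327 CPM (PECAM1-only), 985 and 965 CPM (double-positive) and 1213 and 1265 CPM (PDGFRa-only), without overlap and with 1.99 ± 0.16 (adjusted p = 1.02e-09) for PDGFRa-only and 1.64 ± 0.16 (adjusted p = 4.24e-08) for double-positive. Manf, a secreted ER stress protein, had 50.7 and 62.7 CPM (PECAM1-only), 152 and 129 CPM (double-positive) and 218 and 213 CPM (PDGFRa-only), also in separate ranges, with 1.93 ± 0.17 (adjusted p = 3.82e-09) for PDGFRa-only and 1.31 ± 0.17 (adjusted p = 2.25e-06) for double-positive. Manf shares 146 exon bases with the opposite-strand gene Dcaf1, which had 6291 counts against 4925 for Manf. The lectin chaperones, which hold glycoproteins until they fold, went unequally: Calr, the soluble one, was at 1.81 ± 0.18, and Canx, the membrane-bound one, at 0.41 ± 0.16 (adjusted p = 0.0294). Canx had 552 and 631 CPM (PECAM1-only), 693 and 744 CPM (double-positive) and 772 and 798 CPM (PDGFRa-only). The difference between Calr and Canx was not tested. The Canx call was lost with upper-quartile scaling (0.20, adjusted p = 0.261), with library-size scaling (0.12, adjusted p = 0.508), with a stricter filter (adjusted p = 0.0788), in a fit of these fractions alone (0.0951), and without PECAM1-only replicate 1 (0.185) or double-positive replicate 2 (0.0599).

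The remaining chaperone and isomerase genes were higher by 0.94 to 1.83: Sdf2l1 (1.83 ± 0.26), Dnajb11 (1.79 ± 0.16), Pdia6 (1.77 ± 0.18), Hyou1 (1.43 ± 0.17), Hsp90b1 (1.37 ± 0.17), Creld2 (1.12 ± 0.20) and Pdia4 (0.94 ± 0.17). Dnajb11 encodes the HSP40 partner of BiP, Hyou1 its nucleotide exchange factor, and Sdf2l1 a factor that works with both. Sdf2l1 had the widest spread between PDGFRa-only replicates, 67.1 and 35.7 CPM, the second just below the higher of the double-positive values. Dnajb9, the gene of the co-chaperone ERdj4, which is known as a sensitive target of XBP1, did not pass the test. It had 13.2 and 12.7 CPM (PECAM1-only), 14.2 and 19.9 CPM (double-positive) and 17.7 and 15.7 CPM (PDGFRa-only), with overlap between double-positive and PDGFRa-only cells. All libraries of these 2 fractions lay above both PECAM1-only ones. The log2 fold changes were 0.36 ± 0.24 (adjusted p = 0.215) for PDGFRa-only and 0.39 ± 0.24 (adjusted p = 0.214) for double-positive. Its difference from the other folding genes was not tested.

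Expressed per kb of exon, which allows levels of different genes to be set side by side, Hsp90b1 and Hspa5 had the highest means of the members in every fraction. Hsp90b1 was at 197 ± 34.8 CPM per kb in PECAM1-only and 507 ± 52.4 in PDGFRa-only cells (SD, n = 2), and Hspa5 at 215 ± 31.5 and 428 ± 162. The libraries of these genes overlapped in level within each of these fractions, so their order is not resolved. Pdia3 came next in PDGFRa-only cells at 395 ± 11.6 CPM per kb, between the replicates of Hspa5, and Canx in PECAM1-only cells at 126 ± 11.9. Lengths are those of all annotated exons merged and can exceed the transcripts in use.

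Among regulators and quality control genes, the transcripts of the UPR transcription factors Xbp1, Atf6 and Atf4 were higher in PDGFRa-only cells. Xbp1 (ENSMUSG00000020484, chr11:5520659-5525893, plus strand), whose messenger RNA is spliced by IRE1 to give the active factor, had 58.4 and 74.6 CPM in the PECAM1-only libraries, 182 and 181 CPM in the double-positive libraries and 272 and 236 CPM in the PDGFRa-only libraries. The fractions did not overlap, and the log2 fold changes were 1.93 ± 0.17 (adjusted p = 3.44e-09) for PDGFRa-only and 1.45 ± 0.17 (adjusted p = 5.58e-07) for double-positive. Gene counts do not tell spliced from unspliced Xbp1, so they carry no measure of IRE1 activity. Atf6, a membrane-bound factor freed by cleavage, had 65.7 and 53.9 CPM (PECAM1-only), 179 and 187 CPM (double-positive) and 234 and 234 CPM (PDGFRa-only), likewise in separate ranges, with 1.97 ± 0.16 (adjusted p = 1.58e-09) for PDGFRa-only and 1.61 ± 0.16 (adjusted p = 7.69e-08) for double-positive. Atf4, whose protein is governed mainly by translation, had 124 and 136 CPM (PECAM1-only), 183 and 173 CPM (double-positive) and 270.1 and 237 CPM (PDGFRa-only). Its ranges were separate but closer, with 0.96 ± 0.16 (adjusted p = 2.02e-05) for PDGFRa-only and 0.45 ± 0.16 (adjusted p = 0.0256) for double-positive. The double-positive call was lost without either PECAM1-only library (adjusted p = 0.157 and 0.0572) or either double-positive library (0.141 and 0.0945), with 3 other scalings (0.0585 to 0.219) and with DESeq2 (0.0674).

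Ddit3, which encodes the ATF4 target and pro-death factor CHOP, did not differ detectably. It had 16.6 and 16.0 CPM (PECAM1-only), 17.8 and 13.5 CPM (double-positive) and 19.3 and 16.2 CPM (PDGFRa-only), and all 3 fractions overlapped. The log2 fold changes were 0.11 ± 0.23 (adjusted p = 0.701) for PDGFRa-only and -0.06 ± 0.23 (adjusted p = 0.866) for double-positive, and the sign of the first turned with upper-quartile (-0.09) and library-size scaling (-0.17). Ddit3 shares 68 exon bases with the opposite-strand gene Mars, which had 5233 counts against 608 for Ddit3.

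The genes of ER-associated degradation in this set were all higher. Syvn1, the ubiquitin ligase HRD1, had 18.2 and 20.1 CPM (PECAM1-only), 65.8 and 65.9 CPM (double-positive) and 105 and 72.2 CPM (PDGFRa-only). No fraction overlapped another, although the PDGFRa-only replicates were well apart, and the log2 fold changes were 2.21 ± 0.20 (adjusted p = 8.64e-09) for PDGFRa-only and 1.78 ± 0.20 (adjusted p = 4.75e-07) for double-positive. Syvn1 shares 91 exon bases with the opposite-strand gene Mrpl49, which had 1577 counts against 2039 for Syvn1. Sel1l, its scaffold partner, was at 1.75 ± 0.16, Edem1, which delivers misfolded glycoproteins, at 1.80 ± 0.18, and Herpud1, a membrane component of the same complex, at 1.69 ± 0.21.

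**Figure D3:**
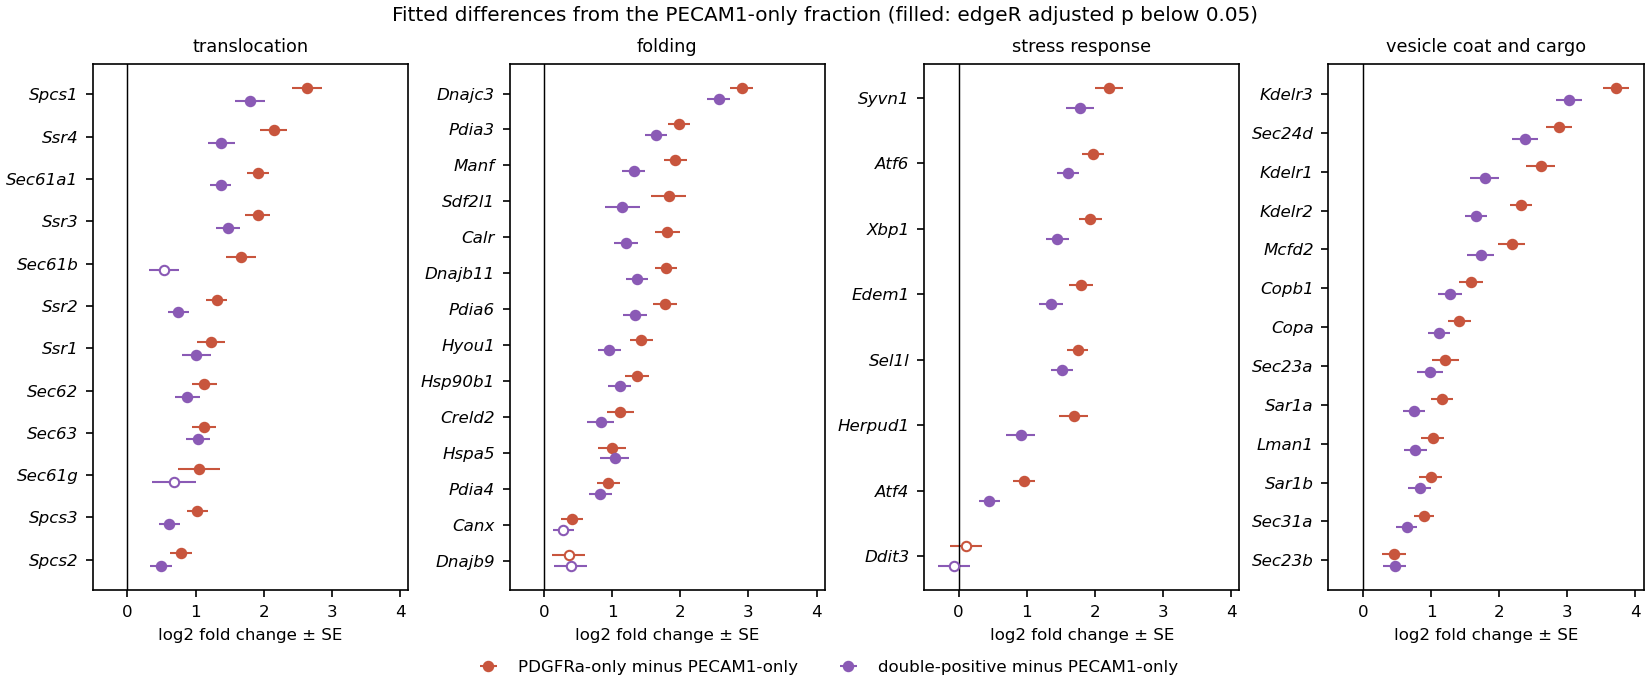
Fitted log2 fold changes from the PECAM1-only fraction with standard errors, PDGFRa-only in red and double-positive in purple, by role; filled points passed the edgeR test and open ones did not. Kdelr3 at 3.72 lies farthest to the right, and the double-positive point lies to the left of the PDGFRa-only point for most genes.

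The largest difference of all members was in a retrieval receptor. Kdelr3 (ENSMUSG00000010830, chr15:79516411-79527739, plus strand), one of 3 genes for the receptors that return KDEL-tagged chaperones such as BiP from the Golgi, had 11.8 and 11.9 CPM in the PECAM1-only libraries, 90.5 and 102 CPM in the double-positive libraries and 148 and 165 CPM in the PDGFRa-only libraries. Each fraction stood far from the next, and the replicates of PECAM1-only cells were nearly equal. Its level was 13.2-fold higher in PDGFRa-only and 8.13-fold higher in double-positive cells, with log2 fold changes of 3.72 ± 0.19 (adjusted p = 8.24e-13) for PDGFRa-only and 3.02 ± 0.19 (adjusted p = 4.15e-11) for double-positive. Kdelr1 had 16.6 and 23.4 CPM (PECAM1-only), 59.3 and 78.2 CPM (double-positive) and 135 and 109 CPM (PDGFRa-only), with 2.61 ± 0.21 (adjusted p = 1.05e-09) for PDGFRa-only and 1.79 ± 0.21 (adjusted p = 7.06e-07) for double-positive. Kdelr2 had 75.4 and 77.8 CPM (PECAM1-only), 224 and 259.9 CPM (double-positive) and 377 and 386 CPM (PDGFRa-only), with 2.32 ± 0.16 (adjusted p = 1.06e-10) for PDGFRa-only and 1.66 ± 0.16 (adjusted p = 3.7e-08) for double-positive. All 3 receptor genes thus had separate ranges in the 3 fractions, in the same order. Sec24d, a COPII subunit that selects cargo and is needed in vertebrates for procollagen export, had 14.8 and 18.5 CPM (PECAM1-only), 80.4 and 93.6 CPM (double-positive) and 116 and 128 CPM (PDGFRa-only), again without overlap, with 2.87 ± 0.19 (adjusted p = 5.33e-11) for PDGFRa-only and 2.38 ± 0.19 (adjusted p = 2.18e-09) for double-positive.

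Mcfd2 (2.18 ± 0.20) and Lman1 (1.03 ± 0.17), which together form a cargo receptor for blood clotting factors, were both higher, Mcfd2 by more; the difference between them was not tested. The COPI subunit genes Copb1 (1.59 ± 0.17) and Copa (1.42 ± 0.16) and the COPII genes Sec23a (1.21 ± 0.19), Sar1a (1.16 ± 0.17), Sar1b (1.00 ± 0.17) and Sec31a (0.90 ± 0.15) followed. Sec23b was the least changed, with 68.1 and 76.1 CPM (PECAM1-only), 99.6 and 99.5 CPM (double-positive) and 83.7 and 113 CPM (PDGFRa-only), 0.45 ± 0.17 in PDGFRa-only (adjusted p = 0.0313) and 0.47 ± 0.17 in double-positive cells (adjusted p = 0.0391). The first of these calls was lost in 8 of the alternatives. DESeq2 gave it an adjusted p of 0.0735, and scaling by library size a log2 fold change of 0.16 with an adjusted p of 0.427. Leaving out the second PDGFRa-only library gave 0.22 with an adjusted p of 0.304, and leaving out PECAM1-only replicate 1 or 2 gave 0.164 and 0.0529. The second was lost in 9 alternatives: without either PECAM1-only library (0.197 and 0.0686) or either double-positive library (0.116 and 0.139), with 3 other scalings (0.0791 to 0.242), with the stricter filter (0.07) and with DESeq2 (0.126).

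Several of these proteins are encoded by paralogous genes, whose shares shifted between fractions. Of the summed level per kb of the 3 KDEL receptor genes, Kdelr3 made up 13.8% ± 0.697 in PECAM1-only, 28.9% ± 0.771 in double-positive and 28.8% ± 1.99 in PDGFRa-only cells (SD, n = 2), and Kdelr2 68.8% ± 2.49, 55.7% ± 0.472 and 54.2% ± 0.686. Kdelr1 stayed between 15.4% and 17.4% on average. The shares of Kdelr3 and Kdelr2 in PECAM1-only libraries did not overlap those in the other fractions. Of 4 Sec24 genes, Sec24d made up 5.96% ± 0.987, 15.3% ± 0.609 and 16.6% ± 0.924 in the same order, and Sec24b, which did not pass the test itself, 39.9% ± 3.92, 24.0% ± 3.28 and 19.4% ± 2.78. Sec23a rose against Sec23b from 56.1% ± 2.82 to 68.4% ± 0.395, with the double-positive libraries at 59.9% and 68.5%. Sar1a and Sar1b kept overlapping shares, Sar1a between 41.0% and 47.8%. These shares are descriptions without a test, and their size depends on the merged exon lengths. Reads that fit more than 1 paralog may have been dropped or misassigned.

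**Figure D4:**
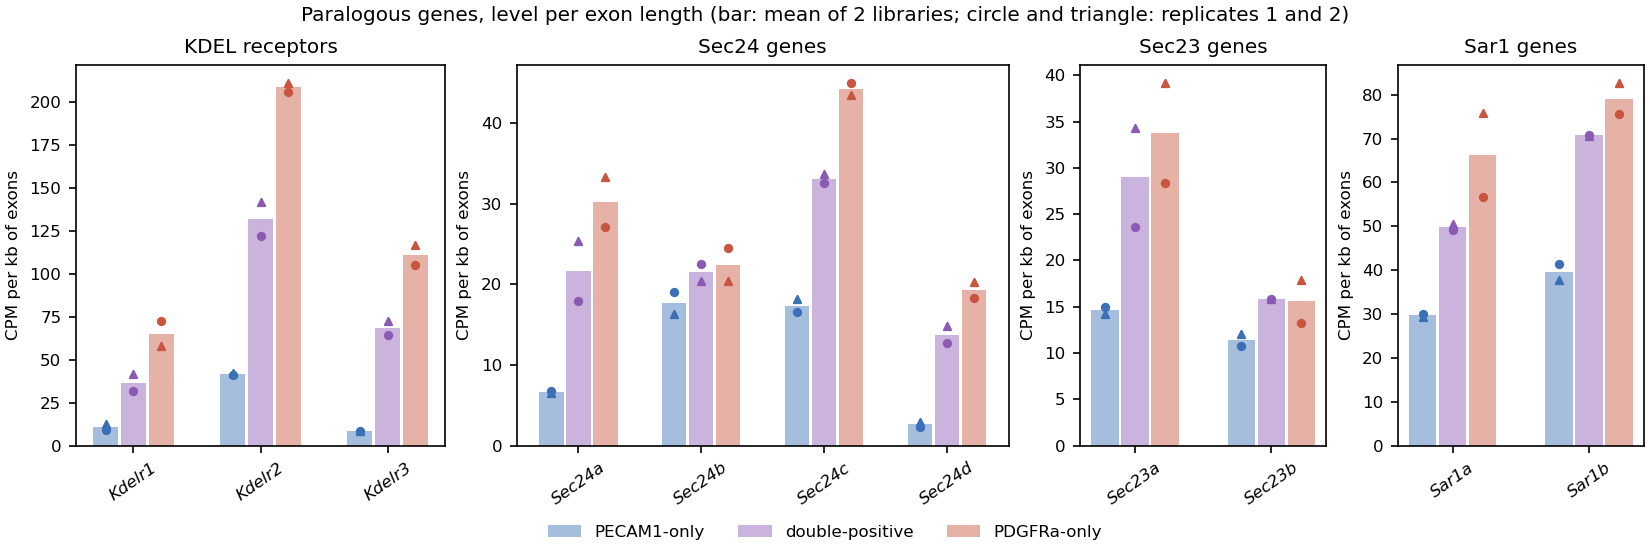
Level per kb of exon of the KDEL receptor, Sec24, Sec23 and Sar1 genes in the 3 fractions; bars start at 0 and are means of 2 libraries, circles and triangles are replicates 1 and 2. Kdelr2 is the highest receptor gene in every fraction, while Kdelr3 and Sec24d are the genes of their families that are lowest in PECAM1-only cells.

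The second comparison placed the double-positive cells against PECAM1-only cells. Here 42 of the 47 genes were higher and 0 lower, where 38.2% of all tested genes passed, 21.8% upward and 16.4% downward. The median log2 fold change was 1.11, and -0.01 over all tested genes. A level at least 2-fold higher was found in 27 members and in 14.3% of all tested genes. The 5 that did not pass were Sec61b, Sec61g (0.68 ± 0.32, adjusted p = 0.0968), Canx (0.28 ± 0.16, adjusted p = 0.166), Dnajb9 and Ddit3. All 13 vesicle coat and cargo genes, 12 of 14 folding genes, 10 of 12 translocation genes and 7 of 8 stress response genes passed, with role medians of 1.12, 1.13, 0.95 and 1.40. Of the 42 calls, 37 held in every alternative; besides Atf4 and Sec23b, Spcs2 was lost with upper-quartile and library-size scaling (adjusted p = 0.113 and 0.173), with DESeq2 (0.068) and without either PECAM1-only library (adjusted p = 0.0546 and 0.129) or double-positive replicate 1 (0.201), Spcs3 without PECAM1-only replicate 1 (0.0625) or double-positive replicate 2 (0.068), and Creld2 without double-positive replicate 1 (0.0631). The comparisons share the PECAM1-only libraries, so their values are given side by side and their likeness is no separate result.

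The third comparison set PDGFRa-only against double-positive cells, which carry nearly the same Pdgfra level. Of the 47 genes, 13 were higher in PDGFRa-only cells and 0 lower, where 17.6% of all tested genes passed, 5.94% upward and 11.7% downward. The median log2 fold change of members was 0.41, and -7.26e-05 over all tested genes. All 3 KDEL receptor genes were among the 13, with Kdelr1 at 0.82 ± 0.19 (adjusted p = 0.00498), Kdelr3 at 0.70 ± 0.16 (0.00455) and Kdelr2 at 0.66 ± 0.15 (0.00472). Translocation genes gave 5, Sec61b (1.13 ± 0.21, adjusted p = 0.000671), Spcs1 (0.84), Ssr4 (0.77), Ssr2 (0.57) and Sec61a1 (0.54); the others were Herpud1 (0.78), Manf (0.61), Calr (0.60), Atf4 (0.51) and Xbp1 (0.49). No member was called lower, by edgeR or by DESeq2. The count depended on single libraries. It fell when either double-positive library was left out, as did the number of all tested genes called higher, and it rose without PDGFRa-only replicate 1. Sec61b was the only one of the 13 that passed in every alternative, and without double-positive replicate 1 the adjusted p of the receptor genes was 0.0976 for Kdelr3, 0.105 for Kdelr1 and 0.124 for Kdelr2.

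The fourth comparison asked whether double-positive cells lay off the midpoint of the other fractions on the log2 scale. Higher than the midpoint were 14 members and lower 0, where 8.55% of all tested genes passed, 8.52% upward and 0.0288% downward. At least 2-fold above it were Kdelr3 and Dnajc3, against 5.15% of all tested genes. The midpoint of log2 levels lies below the mean of the levels themselves, and 1185 of the 1189 genes called over the whole table were higher. The member median was 0.38, against 0.08 over all tested genes. The largest were Kdelr3 (1.16), Dnajc3 (1.11), Sec24d (0.95) and Syvn1 (0.68), and the others were Pdia3 (0.65), Sel1l (0.65), Mcfd2 (0.64), Atf6 (0.63), Ssr3 (0.52), Kdelr2 (0.50), Xbp1 (0.48), Copb1 (0.48), Dnajb11 (0.47) and Sec63 (0.47). The calls of Kdelr3 (adjusted p = 4.88e-06), Dnajc3 (2.34e-06), Sec24d (0.000114) and Pdia3 (0.00176) held in every alternative. The count fell without double-positive replicate 2 and rose without PDGFRa-only replicate 2, as did the number of all tested genes called higher.

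Lists of further genes of the pathway were tested for PDGFRa-only against PECAM1-only cells, with the 3 smallest p named for each; of all tested genes, 30.1% were higher and 28.8% lower in that comparison. Of 12 tested genes of signal recognition and translocation, 11 were higher and 0 lower (median 1.13), led by the translocation factors Tram2 (2.53) and Tram1 (1.87) and the receptor subunit Srprb (2.31). Sec61a2, the paralog of the channel subunit, was named after its values were seen: it had 33.6 and 40.9 CPM (PECAM1-only), 26.0 and 43.3 CPM (double-positive) and 16.6 and 38.5 CPM (PDGFRa-only) and a log2 fold change of -0.40 ± 0.32 (adjusted p = 0.294). Of 16 genes for N-glycosylation and glycan trimming, 14 were higher and 0 lower (median 1.73), led by the oligosaccharyltransferase subunits Krtcap2 (2.59), Dad1 (2.34) and Rpn2 (2.14). Of 16 further folding enzymes, 15 were higher (median 1.76), led by the calcium-binding protein gene Rcn1 (3.27), Erp29 (2.34) and the disulphide isomerase P4hb (2.63), which is also a subunit of collagen prolyl hydroxylase. P4hb had 216 and 246 CPM (PECAM1-only), 1003 and 1110.1 CPM (double-positive) and 1203 and 1648 CPM (PDGFRa-only), with every PDGFRa-only and double-positive library above both PECAM1-only ones.

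ER-associated degradation followed with 15 of 19 tested genes higher (median 0.84), against 30.1% of all tested genes higher and 28.8% lower, led by Derl1 (2.18), Ube2j1 (1.94) and Os9 (1.86), which encode a channel candidate, a ubiquitin-conjugating enzyme and a lectin. Of 19 further genes of COPII and ER exit, 14 were higher (median 1.35), led by the cargo receptor genes Surf4 (2.94) and Tmed9 (2.24) and by Sec24a (2.19). Of 12 further COPI genes, 10 were higher (median 1.09), led by the coat regulators Arfgap1 (2.65) and Arf1 (1.65) and the coat subunit Arcn1 (1.24). Each of these 3 lists and that of folding enzymes had 1 lower gene, named after its values were seen: Derl3 (-1.43 ± 0.54), Ergic1 (-0.75 ± 0.22), Copg2 (-1.53 ± 0.21) and Ero1lb (-1.09 ± 0.44). The COPI list kept a count of 1 lower gene in every alternative, whereas the count of the other 3 fell to 0 in some: of the folding list when any library other than PDGFRa-only replicate 2 was left out, without a count filter and with DESeq2, of the degradation list with the stricter filter, with DESeq2 and without either PDGFRa-only library or PECAM1-only replicate 2, and of the COPII list without PECAM1-only replicate 2. Copg2, a paralog of the coat subunit Copg1, had 39.5 and 49.2 CPM (PECAM1-only), 23.6 and 27.1 CPM (double-positive) and 14.8 and 15.7 CPM (PDGFRa-only). Its share of the summed level per kb of Copg1 and Copg2 was 51.4% ± 5.88 in PECAM1-only, 27.3% ± 3.25 in double-positive and 15.3% ± 0.276 in PDGFRa-only cells (SD, n = 2), without overlap between fractions. The size of this share depends on the merged exon lengths, 11011 bases for Copg1 and 5121 bases for Copg2. Either length can exceed the transcripts in use.

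The UPR sensors and the proteases that activate them were uneven: of 8 tested genes, 5 were higher and 0 lower, against 30.1% and 28.8% of all tested genes. The largest changes were in the membrane-bound factors of the OASIS family, relatives of ATF6 that are known to drive secretory genes. Creb3l2 had 8.73 and 7.84 CPM in the PECAM1-only libraries, 351 and 339.8 CPM in the double-positive libraries and 566 and 456 CPM in the PDGFRa-only libraries, a log2 fold change of 5.94 ± 0.21 (adjusted p = 3.6e-15). Every PDGFRa-only library was above every double-positive one, and the PECAM1-only libraries were below 10 CPM. Creb3 (3.78 ± 0.29) and Creb3l1 (3.12 ± 0.26) were also higher. The sensor genes Ern1 (1.25 ± 0.21) and Eif2ak3 (0.94 ± 0.20), named because only 5 genes passed, were higher by less. The genes of both site proteases that cleave ATF6, Mbtps1 and Mbtps2, had log2 fold changes of -0.04 ± 0.16 and -0.07 ± 0.22 (adjusted p = 0.858 and 0.798). The remaining gene that did not pass, Atf6b, had a log2 fold change of 0.32 ± 0.23 (adjusted p = 0.248).

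Targets of the PERK and ATF4 arm were called higher at about the share of all genes, and lower at a larger share. PDGFRa-only cells had 5 of the 16 tested genes higher and 9 lower, where 30.1% of all tested genes were higher and 28.8% lower. The count of higher genes is thus near the background, and that of lower genes is above it. The median of the list was -0.46, and its summed level was 1720.2 and 1834 CPM in PECAM1-only, 1783 and 1731 CPM in double-positive and 1750.4 and 1799 CPM in PDGFRa-only libraries, overlapping throughout. Higher were Atf3 (4.84), Vldlr (2.45), Wars (4.30-fold), Ppp1r15a (0.89) and Asns (0.49), a transcription factor, a lipoprotein receptor, a transfer RNA synthetase, a phosphatase subunit that ends the PERK response and asparagine synthetase. Nupr1, a stress-induced chromatin protein, was lower (-3.05 ± 0.47, adjusted p = 1.13e-05), at 7.13 and 8.31 CPM (PECAM1-only), 2.83 and 3.76 CPM (double-positive) and 1.35 and 0.604 CPM (PDGFRa-only). The amino acid genes Aars (-0.78) and Psat1 (-0.62) and the translation inhibitor Eif4ebp1 (-0.92) were lower too. All of these except Atf3, Wars and Nupr1 were named after their values were seen. In double-positive cells 4 were higher and 7 lower, where 21.8% of all tested genes were higher, near the share of the list, and 16.4% lower, below the share of the list. The count of lower genes fell without PECAM1-only replicate 2 or either double-positive library, as did the number of all tested genes called lower.

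The promoter matches of this list lay on both sides. CARE was found in Atf3, Vldlr and Asns among the genes that were higher, and in Nupr1, Aars, Chac1 and Trib3 among those that were lower. Slc7a11, which also held it, was too low to be tested. The matches of Atf3 and Nupr1 are shown, as the genes with the largest rise and fall of the list, with the fixed letters of the element in capitals:
Atf3: acttggTGATGcAAgtgcga
Nupr1: cctgtcTGATGcAAtctggc
They lie at Atf3 chr1:191183430-191183449 and Nupr1 chr7:126625567-126625586, both on the strand opposite to the gene and from 110 to 103 bases before its start.

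**Figure D5:**
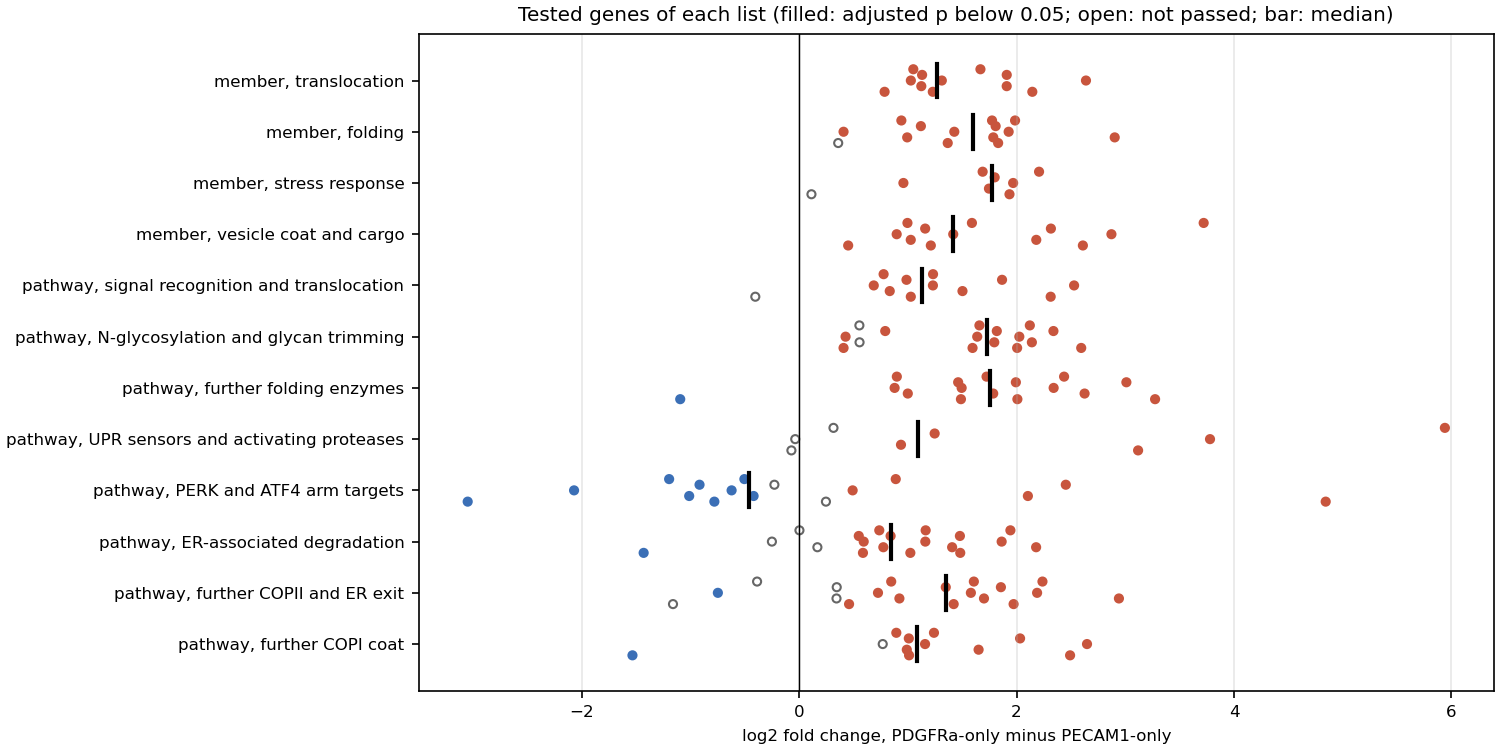
Log2 fold change between PDGFRa-only and PECAM1-only cells of every tested gene in the 4 member groups and the 8 further pathway lists; red and blue points passed the test upward and downward, open points did not, and black bars are medians. The list medians lie between 0.84 and 1.77, except that of the PERK and ATF4 arm, at -0.46.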

How the data were processed

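RNA of 3 sorted fractions was sequenced in 6 libraries, 2 for each fraction. The deposited values are raw counts of reads per gene, which the authors made, per the submitters' processing notes, with cutadapt 1.2.1, TopHat2 2.0.8b, Bowtie2 2.1.0 and HTSeq 0.5.4p3 on genome build GRCm38; the strand setting is not given in the sources used here, and amplification before sequencing means that reads are not independent molecules. A deposited RPKM table was not used. The count table held 0 unmapped sample columns.

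Counts were analysed with edgeR 4.0.16 and limma 3.58.1 in R 4.3.3: TMM scaling, filterByExpr with a minimum count of 10 (13909 of 38561 genes kept), 1 mean per fraction, robust quasi-likelihood tests with 3 residual degrees of freedom, two-sided, and Benjamini-Hochberg adjustment over all kept genes at 0.05. The biological coefficient of variation was 13.5%. The fit was tested on simulated data for PDGFRa-only against PECAM1-only cells. It recovered 84.9% of true log2 changes of 1 and 57.9% of those of -1. For changes of 2 and -2 it recovered 100% and 88.6%, so decreases were recovered less often than increases. There were 8 false calls with 13348 genes fitted. Alternatives were other scalings (DESeq2 size factors, upper quartile, library size), other count filters, a fit without robust estimation, a replicate block, DESeq2 1.42.0, a fit of the compared fractions alone, a threshold of 0.01 and leaving out each library. Exon lengths and positions came from GENCODE M21 (36639 IDs matched), and promoters from RefSeq (GRCm38.p6). Figures were drawn with Python 3.11.15, pandas 2.3.3 and matplotlib 3.10.9.

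The 47 genes and all lists were chosen with earlier results of these data known. Values in every library are given, in each role, for the 3 genes that differed most in either direction between PDGFRa-only and PECAM1-only cells among those that passed, and for Hspa5, Xbp1, Atf4, Atf6, Ddit3, Sec61a1 and the KDEL receptors; each further pathway list is represented by its 3 smallest p, and genes outside these rules were named after their values were seen.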

Additional observations from a re-analysis of the deposited data

How the results depend on the processing

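The counts of members called higher against PECAM1-only cells stayed within 42 to 45 (PDGFRa-only, main count 45) and 38 to 43 (double-positive, main count 42) in the alternatives run. The smaller comparisons moved. For PDGFRa-only against double-positive cells, 13 genes higher became 20 with the replicate block and 6 at a threshold of 0.01, and ranged from 2 to 23 when 1 library was left out; the count of lower genes ranged from 0 to 1. For double-positive cells against the midpoint, 14 became 9 with DESeq2 size factors, 9 with upper-quartile scaling, 9 with library-size scaling, 22 without a count filter and 7 at 0.01, and ranged from 5 to 25 when 1 library was left out. The number of all tested genes called also changed between these alternatives, and the cause was not tested. Leaving out 1 library each time, Ddit3 ranged from -0.252 to 0.133 (double-positive against PECAM1-only) and from -0.0129 to 0.385 (PDGFRa-only against double-positive), and Hspa5 from -0.494 to 0.307 (PDGFRa-only against double-positive). Signs turned for Ddit3 in PDGFRa-only against PECAM1-only cells (-0.0911 with upper-quartile, -0.17 with library-size scaling), in double-positive against PECAM1-only cells (0.13 without double-positive replicate 2) and in PDGFRa-only against double-positive cells (-0.0129 without double-positive replicate 2), and for Hspa5 in the last comparison (0.31 without PDGFRa-only replicate 1). Upper-quartile and library-size scaling moved the median of all genes between PDGFRa-only and PECAM1-only cells by -0.205 and -0.287, and the share of higher genes among those called from 51.1% to 41.5% and 37.8%; for double-positive against PECAM1-only cells the share went from 57% to 43.3% and 39.8%.

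Deviations of same-numbered libraries correlated at -0.0289 (PDGFRa-only with PECAM1-only), 0.132 (PDGFRa-only with double-positive) and 0.183 (PECAM1-only with double-positive), so the numbers were not taken to pair samples. With the replicate block the counts were 45, 42, 20 and 20 in the order of the 4 comparisons. With 2 libraries a fraction, small differences were not resolved, and members below 30 CPM, such as Sec61g and Ddit3, carried few counts.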

Other observations

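Outside the 47 genes, the ERSE was found in the promoter windows of 2 ER genes that were lower in PDGFRa-only than in PECAM1-only cells. Both were picked after their values were seen because they were lower, so they say nothing of genes with the element in general. Krtcap2, a list gene with ERSE-II, was higher (2.59 ± 0.20, edgeR, adjusted p = 5.21e-10), and Alg12 and Calr4, which also held the ERSE, are in none of the lists and were not analysed here. Derl3, which encodes a degradation factor of the ER membrane, had 2.18 and 3.76 CPM in PECAM1-only, 3.93 and 2.66 CPM in double-positive and 1.12 and 1.06 CPM in PDGFRa-only libraries, a log2 fold change of -1.43 ± 0.54 (edgeR, adjusted p = 0.0282). Ero1lb, which RefSeq lists as Ero1b and which encodes an oxidase that makes disulphide bonds, had 4.66 and 3.76, 3.30 and 3.13, and 1.57 and 2.27 CPM in the same order, a log2 fold change of -1.09 ± 0.44 (edgeR, adjusted p = 0.036). Both genes were below 5 CPM in every library, and neither count of lower genes in their lists held with DESeq2 or without PDGFRa-only replicate 1 or PECAM1-only replicate 2.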
